A study of Mus musculus with 6 samples.

Results

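KD3010 and GW1516, both agonists of the nuclear receptor PPAR-delta, were compared directly with each other in primary mouse hepatocytes. The comparison uses 4 of the 6 bead arrays of the study, 2 from cells given KD3010 and 2 from cells given GW1516. The other 2 arrays, from cells given the solvent DMSO, serve as the level that both agonists are set against. All 6 came from hepatocytes of male 10-week-old wildtype mice on a c57Bl6/J background, and no allele or further agent is named. The labels describe the arrays of a group, here A and B, as technical replicates, so a p-value here speaks of array-to-array spread and says nothing of other cultures or mice. No dose or treatment time is given in these sources, and whether the 2 agonists were matched in either is unknown. Only 1 pair of compounds could be compared. Of 25697 probes, 10285 had a detection p below 0.05 on the pair of arrays of 1 or both agonists, and they gave 7884 features: 7300 named genes, each represented by its brightest probe, and 584 unnamed probes.

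PPAR-delta is switched on by fatty acids and by synthetic ligands, pairs with a retinoid X receptor and binds direct repeats near its target genes. In hepatocytes and muscle its targets include genes for burning fatty acids, for coating lipid droplets and, through Pdk4, for inhibiting pyruvate dehydrogenase. A direct comparison of 2 agonists asks which genes differ between the compounds, whatever both do in common.

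The arrays had 10239 to 10805 detected probes and mean intensities between 953.2, on GW1516 array A, and 1157. Of 17 hepatocyte markers with a probe, 13 were detected on all 6 arrays, among them Ttr, Apoa1, Cps1 and Hnf4a, while the probes of Alb, Tat and Fgb were detected on none. Of 14 Kupffer cell markers 3 were detected on all arrays, and the defining genes Clec4f, Vsig4, Cd5l and Marco on none. Of 15 stellate cell markers 2 were detected on all arrays, of 15 sinusoidal endothelial markers 11, of 7 cholangiocyte markers 1 and of 11 lymphocyte markers 0. The correlation of log2 levels across features was 0.990 between the KD3010 arrays and 0.989 between the GW1516 arrays (0.991 for DMSO), against 0.984 to 0.987 for a KD3010 array with a GW1516 array. GW1516 array B lay as close to DMSO array A (0.9896) as to GW1516 array A (0.9895).

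Between the agonists 2 genes passed the test. Npy was higher and Guca2a lower with KD3010 than with GW1516, each called by limma at an adjusted p below 0.05 with at least 1.5-fold, 1 of 7884 features (0.0127%) in each direction. A wider description, here called set apart, counts features whose KD3010 arrays both lay beyond both GW1516 arrays with group means at least 1.5-fold apart: 188 (2.38%) were higher and 217 (2.75%) lower with KD3010, so 46.4% of these were higher. For 76 of these 405, detected on neither array of the dimmer agonist, only an at-least fold can be given. They passed the detection rule through the brighter agonist alone. With median scaling in place of quantile normalization, which set the median of all features at -0.117 for KD3010 and -0.0864 for GW1516 against DMSO on the log2 scale, the higher share was 34.4%. In the authors' normalized values 22 features were set apart as higher and 25 as lower. Arrays A and B were at least 1.5-fold apart at 455 features for KD3010 and at 509 for GW1516, and a single KD3010 array and a single GW1516 array at 709 to 978. The median of all differences, KD3010 minus GW1516 on the log2 scale as everywhere below, was -0.0059. At an unadjusted p below 0.05 there were 1145 features, 505 higher and 640 lower with KD3010, where 394 would be expected if no feature differed. With features split by brightness into 3 sets of 2628, the dimmest set had 125 set apart as higher and 140 as lower, the middle set 36 and 55, and the brightest set 27 and 22. Just inside the 1.5-fold limit were Fam126a (-0.585) and Lcn4 (0.586), and just outside it Oasl2 (-0.585) and Cyp8b1 (0.584).

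**Figure D1:**
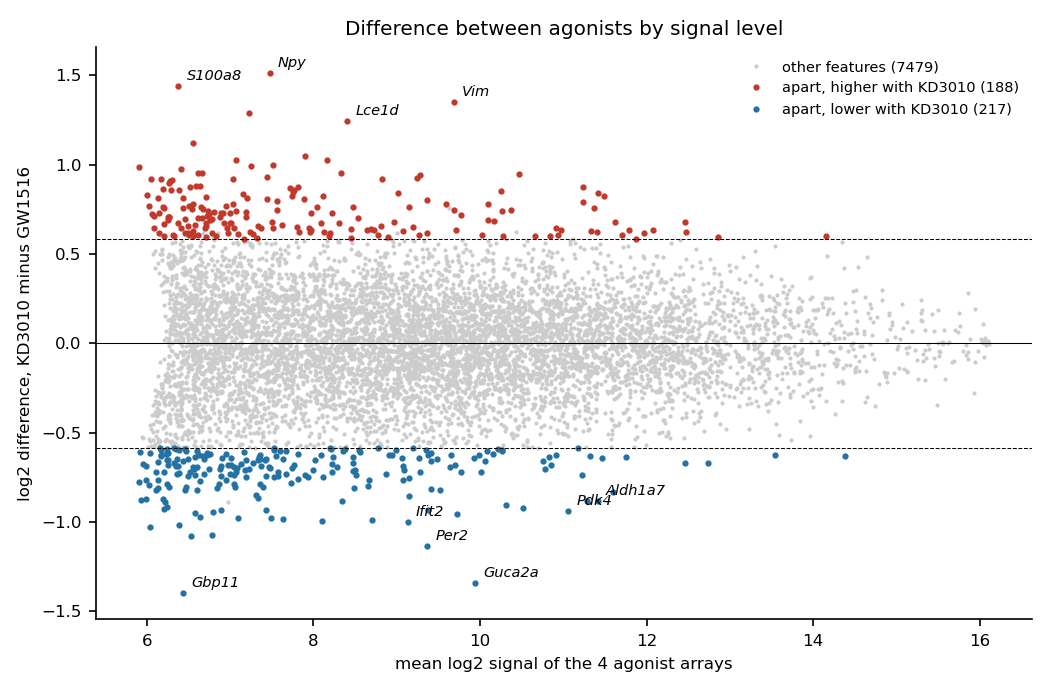
Each point is 1 of 7884 features, with its mean log2 level over the KD3010 and GW1516 arrays on the horizontal axis and the KD3010 minus GW1516 log2 difference on the vertical axis. Features with arrays apart and means at least 1.5-fold apart, 188 higher and 217 lower with KD3010, are coloured, and more of them lie at the dim end.

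Npy encodes neuropeptide Y, a peptide transmitter of neurons and the adrenal gland. Its log2 level was 8.37 and 8.09 on the KD3010 arrays, 6.56 and 6.88 on the GW1516 arrays and 7.66 and 7.45 on the DMSO arrays. The 3 groups did not overlap, with KD3010 above DMSO and GW1516 below it. The difference was 1.51 ± 0.19 (SE; 95% interval 1.10 to 1.93; 2 arrays per agonist; limma, adjusted p = 0.0471). The authors' normalized values were 550 and 490 with KD3010, 309 and 333 with GW1516, and 421 and 391 with DMSO, a smaller difference of 0.69 that was also called (limma, adjusted p = 0.011). The 300 bases around the start of Npy (250 before to 50 after it, RefSeq GRCm38.p6, chr6:49822460-49822759, plus strand) are shown because Npy had the larger of the 2 called differences, with capitals for CCAAT, searched on both strands, which 37.4% of 32851 promoters hold.
Npy: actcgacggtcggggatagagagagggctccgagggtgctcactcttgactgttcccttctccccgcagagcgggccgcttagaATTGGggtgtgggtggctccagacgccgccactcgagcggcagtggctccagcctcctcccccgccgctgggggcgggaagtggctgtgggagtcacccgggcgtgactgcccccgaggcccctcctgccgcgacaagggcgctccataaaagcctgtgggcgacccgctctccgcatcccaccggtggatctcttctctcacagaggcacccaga

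Guca2a encodes guanylin, a peptide that activates guanylate cyclase C in the gut and so governs salt and water secretion there. Its log2 level was 9.25 and 9.28 on the KD3010 arrays, 10.50 and 10.71 on the GW1516 arrays and 10.82 and 10.61 on the DMSO arrays. Both KD3010 arrays stood below all others, and the GW1516 and DMSO arrays overlapped. The difference was -1.34 ± 0.17 (SE; 95% interval -1.71 to -0.97; 2 arrays per agonist; limma, adjusted p = 0.0471). In the authors' normalized values Guca2a had 824 and 829 with KD3010, 1648 and 1880 with GW1516, and 1999 and 1775 with DMSO (difference -1.09, limma adjusted p = 0.000599). The start of Guca2a (RefSeq GRCm38.p6, chr4:119637482-119637781, plus strand) is shown as that of the other called gene, and holds neither CCAAT nor TATAAA, which 13.6% of promoters hold.
Guca2a: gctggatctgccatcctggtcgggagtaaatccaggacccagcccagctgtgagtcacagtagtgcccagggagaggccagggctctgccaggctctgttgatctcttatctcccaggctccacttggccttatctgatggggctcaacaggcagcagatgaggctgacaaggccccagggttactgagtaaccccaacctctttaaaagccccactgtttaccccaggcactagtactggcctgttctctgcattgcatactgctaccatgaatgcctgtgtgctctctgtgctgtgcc

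Both calls stood close to the threshold. With probes kept when detected in any of the 3 groups, which tested 8058 features, the adjusted p of both was 0.0624, and without any 1 of the 6 arrays it lay between 0.114 and 0.384 (limma). Over all 19 alternatives the limma adjusted p of Npy lay between 0.00145 and 0.384, that of Guca2a between 4.74e-05 and 0.384, and each was called in 7. An exact permutation test of 2 arrays against 2 cannot go below a two-sided p of 0.333.

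In the authors' own normalized values, 39 features were called between the agonists: 16 (0.203%) higher and 23 (0.292%) lower with KD3010. All 39 were also set apart in the background-corrected values, and 35 have a gene name. Vim, the intermediate filament vimentin, averaged 1523 with KD3010, 748 with GW1516 and 975 with DMSO there (difference 1.05, limma adjusted p = 0.00301). Acot13, a thioesterase that frees fatty acids from coenzyme A, had 4239 and 3750 with KD3010, 2298 and 2390 with GW1516, and 3152 and 2861 with DMSO. Nupr1, a stress-induced chromatin protein, had 3355 and 3285 with KD3010, 1932 and 2116 with GW1516, and 2189 and 2099 with DMSO. Acot13 with GW1516 lay below both DMSO arrays, while Nupr1 with GW1516 overlapped them. Lower with KD3010 were Aldh1a7, Per2, Pdk4, Net1, Rgs16, Ifit2 and Tnfaip2, with differences from -0.84 to -0.69. They also included Mcl1, the anti-apoptotic BCL2 relative, with 4203 and 5040 in KD3010 arrays, 6570 and 7771 in GW1516 arrays, and 7935 and 8413 in DMSO arrays.

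**Figure D2:**
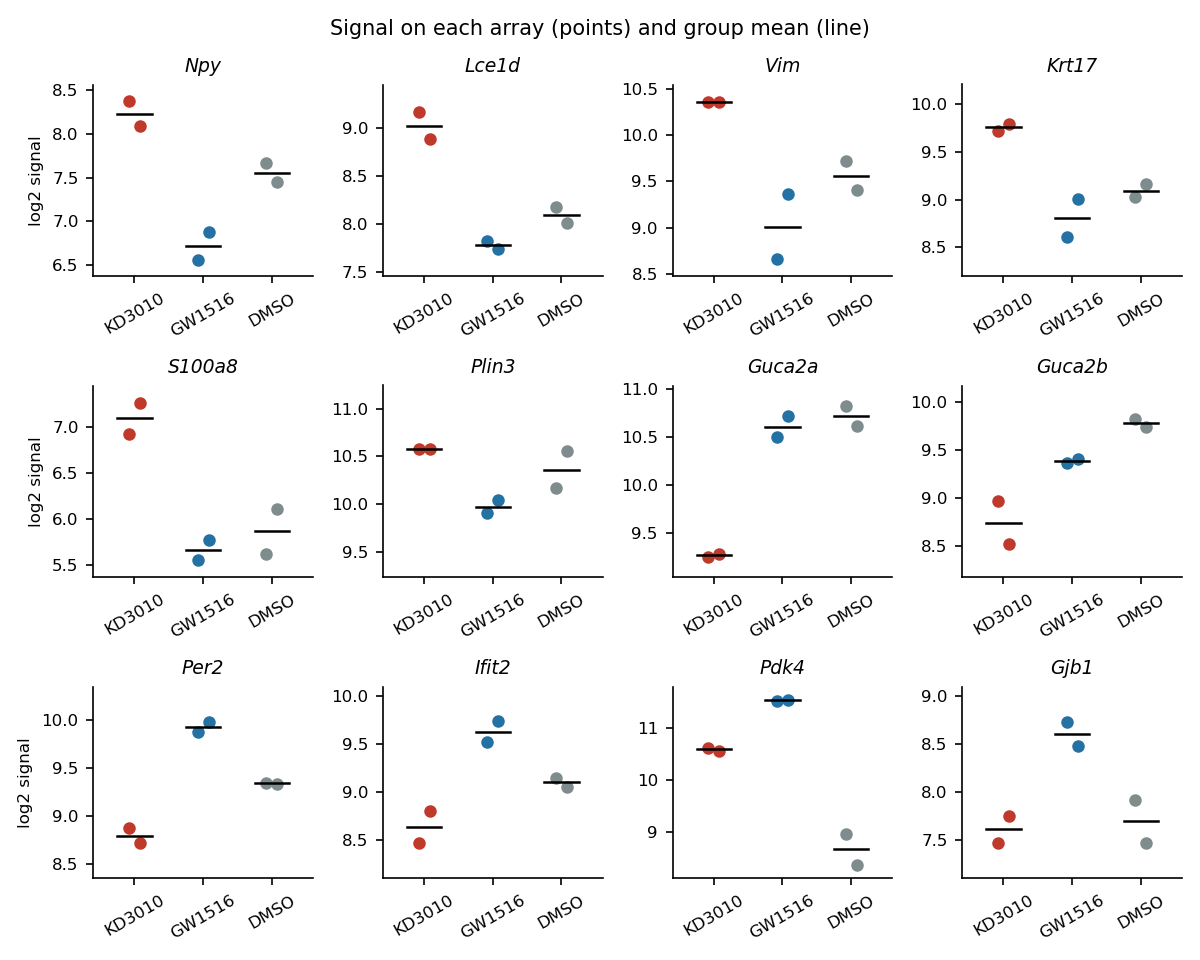
Log2 level after background correction and quantile normalization on each array, by gene in 12 panels, with KD3010 at the left, GW1516 in the middle and DMSO at the right. Points are arrays A and B and lines are group means. Npy with KD3010 sits at 8.37 and 8.09, above both other groups, and Guca2a with KD3010 at 9.25 and 9.28, below both.

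Beyond the calls, Vim and Lce1d had the largest differences on the higher side for KD3010 among named genes detected with both agonists. Vim had a log2 level of 10.36 on both KD3010 arrays, 8.66 and 9.36 on the GW1516 arrays and 9.72 and 9.41 on the DMSO arrays. KD3010 was above every DMSO array and GW1516 below every one, though GW1516 array A, the array with the lowest mean intensity, lay well under array B. The difference was 1.35 (95% interval 0.84 to 1.87; limma, adjusted p = 0.124), and without GW1516 array A it was 1.001. Lce1d, a late cornified envelope protein of skin, had 9.16 and 8.88 with KD3010, 7.82 and 7.74 with GW1516, and 8.17 and 8.0 with DMSO. Its difference of 1.24 (95% interval 0.86 to 1.62) had a limma adjusted p of 0.0578. Krt17, a keratin of stressed and wounded skin, had 9.71 and 9.79 with KD3010, 8.61 and 9.0 with GW1516, and 9.03 and 9.16 with DMSO, a difference of 0.94 (limma, adjusted p = 0.124). In all 3 of these genes the arrays of the 3 groups did not overlap. The starts of Lce1d (chr3:92687161-92687460, minus strand) and Vim (chr2:13574061-13574360, plus strand), from the same RefSeq build, are shown since these genes followed Npy in size among genes on opposite sides of DMSO. Capitals mark CCAAT and TATAAA.
Lce1d: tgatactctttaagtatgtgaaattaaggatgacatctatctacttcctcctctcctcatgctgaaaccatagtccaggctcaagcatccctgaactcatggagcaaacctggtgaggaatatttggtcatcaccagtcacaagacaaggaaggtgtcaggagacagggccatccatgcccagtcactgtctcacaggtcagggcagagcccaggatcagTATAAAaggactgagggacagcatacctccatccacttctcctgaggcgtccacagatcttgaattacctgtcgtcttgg
Vim: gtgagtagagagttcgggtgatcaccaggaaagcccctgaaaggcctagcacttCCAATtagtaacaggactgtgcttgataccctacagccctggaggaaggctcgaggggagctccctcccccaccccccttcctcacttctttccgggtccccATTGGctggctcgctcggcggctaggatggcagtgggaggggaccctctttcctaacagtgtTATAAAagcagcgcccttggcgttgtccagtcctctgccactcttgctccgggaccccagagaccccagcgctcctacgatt

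S100a8, a calcium-binding protein abundant in neutrophils, was detected on both KD3010 arrays, at 6.93 and 7.27, and on no GW1516 or DMSO array. It was thus at least 1.90-fold higher with KD3010 than with GW1516 (limma, adjusted p = 0.0578), and it passed the detection rule through KD3010 alone, the group where it is high. Of the other neutrophil markers S100a9, Camp, Ngp and Elane were detected on no array. S100a6 of the same family had 8.45 and 8.91 with KD3010, 7.15 and 8.16 with GW1516, and 8.11 and 8.42 with DMSO, so it was GW1516 array A that lay lowest. The remaining genes of largest positive difference were Exog, a mitochondrial nuclease (1.12), Kdelr3, an endoplasmic reticulum retrieval receptor (1.05), Gpd1, the cytosolic glycerol-3-phosphate dehydrogenase (1.03), the histone variant H2al1m (1.00), Slc51b, a subunit of the basolateral bile acid exporter (0.99), Patj and Htr2b. Without GW1516 array A the difference was 0.52 for S100a6 and 0.48 for both H2al1m and Slc51b. Each had a limma adjusted p of at least 0.124, and Patj, detected on neither GW1516 array, was at least 1.17-fold higher. Exog and Htr2b were detected on 1 of 2 GW1516 arrays.

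On the lower side for KD3010, Per2, Tmed8, Ifit2, Gjb1 and Hpgd followed Guca2a among named genes detected with both agonists. Per2, a repressor in the circadian clock, had 8.88 and 8.72 with KD3010, 9.88 and 9.98 with GW1516, and 9.35 and 9.34 with DMSO. The 3 groups were again separate, with KD3010 lowest and GW1516 highest. The difference was -1.13 (95% interval -1.49 to -0.78; limma, adjusted p = 0.0578), while a second Per2 probe gave -0.28 ± 0.17 (SE). Gbp11, an interferon-induced GTPase, was detected on neither KD3010 array (5.41 and 6.06) and lay at 7.28 and 6.98 with GW1516 and 6.96 and 6.69 with DMSO, at least 1.81-fold lower with KD3010 than with GW1516 (limma, adjusted p = 0.124). Of the agonists only GW1516, where it is high, brought it past the detection rule. Ifit2, an interferon-induced RNA-binding protein, had 8.46 and 8.80 with KD3010, 9.52 and 9.74 with GW1516, and 9.14 and 9.06 with DMSO, and a second Ifit2 probe gave -1.29 beside -1.0 for the first. Gjb1, the main gap junction protein of hepatocytes, had 7.47 and 7.75 with KD3010, 8.73 and 8.48 with GW1516, and 7.92 and 7.47 with DMSO. Here GW1516 stood above the other 2 groups, which overlapped. Hpgd, which inactivates prostaglandins, had 8.0 and 8.43 with KD3010, 9.18 and 9.22 with GW1516, and 8.99 and 9.29 with DMSO, so here KD3010 stood apart. Tmed8, of a family of cargo receptors in the secretory pathway, had a difference of -1.07, with 1 of 2 KD3010 arrays detected. Zmynd15, Urad, an enzyme of urate breakdown, and Vmn1r42, a vomeronasal receptor gene, were detected on neither KD3010 array and were at least 1.74-fold, 1.53-fold and 1.21-fold lower with KD3010 than with GW1516.

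The study's DMSO arrays divide the 405 features set apart by which agonist lay off the solvent level. An agonist counted as off that level where its pair of arrays was wholly above or wholly below the DMSO pair. Of the features higher with KD3010, 64 had KD3010 alone above DMSO and 51 had GW1516 alone below. A further 32 had the agonists on opposite sides with each mean at least 1.2-fold from the DMSO mean, and 19 on opposite sides with one mean closer than that. Of those lower with KD3010, 72 had KD3010 alone below DMSO, 42 had GW1516 alone above, 39 had them on opposite sides at 1.2-fold or more and 36 on opposite sides with one mean closer. Both agonists lay above DMSO in 5 of the higher and 6 of the lower features and below it in 3 and 9, and neither was apart from DMSO in 14 and 13. The 2 comparisons with DMSO share the same DMSO arrays, so these classes describe the arrays and are not tested.

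Genes with the agonists on opposite sides of DMSO were taken as those with both arrays of one agonist above and both of the other below both DMSO arrays, each mean at least 1.2-fold from the DMSO mean. There were 77 such features. KD3010 was above and GW1516 below DMSO in 34 (0.431%), and KD3010 below and GW1516 above in 43 (0.545%). These shares are the background over the 7884 features, and the rule itself fixes the directions, so nothing over the set was tested. Detected on at least 1 array of each agonist were 29 features in the first set and 32 in the second. Among them the fold between the agonists ran from 1.48 to 2.85 and from 1.48 to 2.20, its lower end being bounded by the 1.2-fold minimum. Npy alone of the 77 was called between the agonists. Just inside the 1.2-fold limit were Mcm6 (0.264 above DMSO with KD3010), Retreg2 (0.267) and Cope (0.268), and just outside it Vsnl1 (-0.263 with KD3010), Theg (-0.263 with GW1516) and Gmeb2 (0.262 with GW1516). Without that minimum 384 features lay on opposite sides, and in the authors' normalized values 8 and 5 met the full rule.

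With KD3010 above and GW1516 below DMSO were, after Npy, Vim and Lce1d, the nuclease Exog, the adhesion scaffold Patj, the serotonin receptor Htr2b, the dipeptidase Cndp2, the calcium release channel Itpr3 and Krt17. Exog, Htr2b and Itpr3 were detected on 1 of 2 GW1516 arrays. Cndp2 had 8.64 and 8.98 with KD3010, 8.07 and 7.65 with GW1516, and 8.37 on both DMSO arrays, a difference of 0.95 between the agonists, with KD3010 at 0.44 and GW1516 at -0.52 against DMSO. Brighter members included Acot13 (0.82 between the agonists), the lysosomal sulfatase Arsa (0.76), the citric acid cycle enzyme Mdh2 (0.61) and the coatomer subunit Cope (0.58), whose 3 further probes gave 0.36, 0.38 and -0.059. The heparan sulfate proteoglycan Gpc1 had a difference of 0.93 and the BCL2 relative Bcl2l14 one of 0.92. Npy and Lce1d aside, these had a limma adjusted p of at least 0.124 between the agonists.

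With KD3010 below and GW1516 above DMSO were Gbp11, Per2, Ifit2, the long noncoding RNA Tug1, the serpin Serpinb6b, Ints6l, Tigd2, the ubiquitin ligase Rnf20, the RhoA exchange factor Net1 and Rgs16, which damps G protein signals. Rnf20 was detected on neither KD3010 array and passed the detection rule through GW1516 alone. It was at least 1.32-fold lower with KD3010 than with GW1516. Ints6l was detected on 1 of 2 KD3010 arrays. Rgs16 had 10.03 and 9.69 with KD3010, 10.95 and 10.59 with GW1516, and 10.39 and 10.43 with DMSO. Aldh1a7, an aldehyde dehydrogenase of liver, had 10.98 and 10.96 with KD3010, 11.86 and 11.84 with GW1516, and 11.32 and 11.39 with DMSO. Both arrays of each group lay close together and the groups were separate (difference -0.88; limma, adjusted p = 0.124). Igfbp1, which binds insulin-like growth factors and is repressed by insulin, had 9.08 and 9.14 with KD3010, 9.77 and 10.10 with GW1516, and 9.31 and 9.53 with DMSO. Bcl2l1, the anti-apoptotic BCL-X, had a difference of -0.64, but 2 further probes gave -0.30 and 0.06. The cytokine Il1a (-0.65) and the amino acid carrier Slc38a2 (-0.58, a second probe -0.17) were in the same set. Genes on opposite sides of DMSO had 19 further kept probes, of which 14 had the same sign, against 1433 of 2401 over all genes. Some genes gave several of these probes, and the genes were picked for their differences on the same arrays, so this does not test the set.

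**Figure D3:**
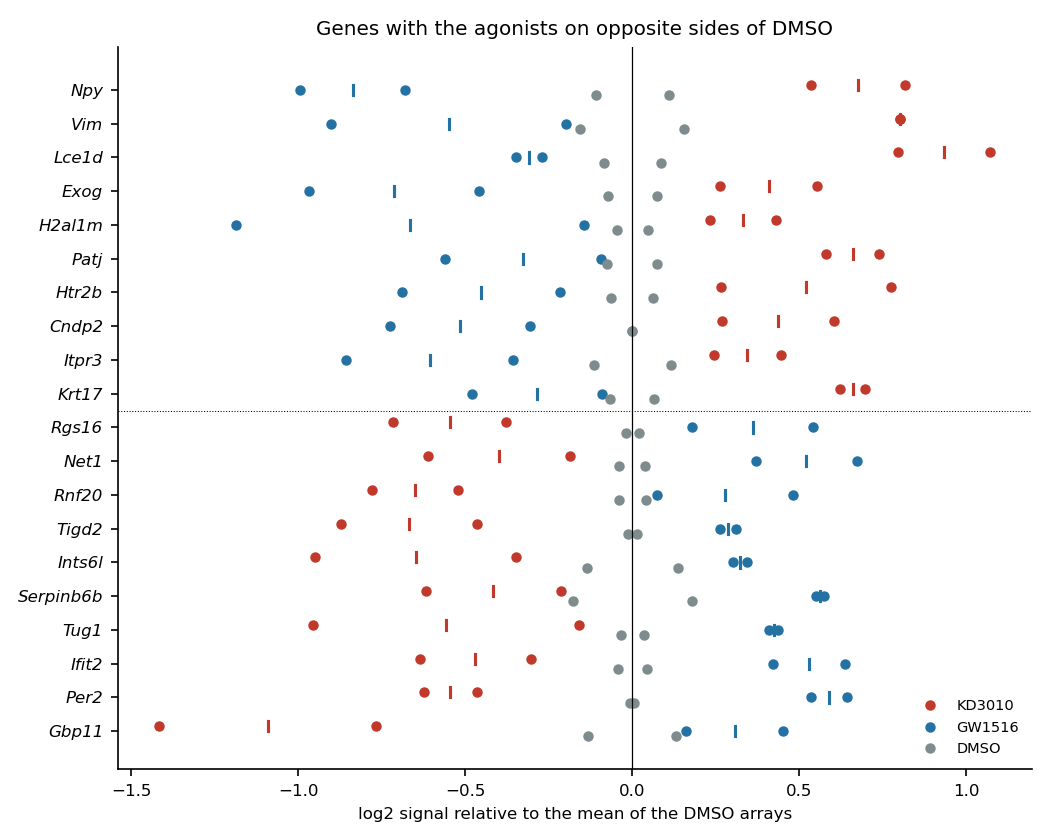
Log2 differences from the DMSO mean for named genes on opposite sides of DMSO, with a point for each array (KD3010 red, GW1516 blue, DMSO grey) and a short bar for the group mean. The rule places KD3010 to one side of 0 and GW1516 to the other, and the spread between arrays A and B shows how far apart they are: Npy averaged 0.68 with KD3010 and -0.84 with GW1516.

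Among known PPAR targets, none passed the test between the agonists. Of 36 genes in a list of such targets 22 were tested, and 14 were below 0 between the agonists and 8 above, with a median of -0.14, against -0.0059 over all features. None was higher with KD3010 in the sense of being set apart, 2 were lower (the background is 2.75%), and 0 of the 22 were called (4 had an unadjusted limma p below 0.05). Pdk4, which inhibits pyruvate dehydrogenase, had 10.62 and 10.55 with KD3010, 11.52 and 11.54 with GW1516, and 8.96 and 8.36 with DMSO. Both agonists lay above DMSO, GW1516 further, and the difference was -0.94 (95% interval -1.40 to -0.48; limma, adjusted p = 0.128; called in the authors' normalized values, adjusted p = 0.00591). Ehhadh, a bifunctional enzyme of peroxisomal fatty acid oxidation, had 7.93 and 7.86 with KD3010, 9.08 and 8.49 with GW1516, and 7.30 and 7.59 with DMSO, a difference of -0.88 (limma, adjusted p = 0.144). The median over the 22 genes was 0.44 for KD3010 and 0.71 for GW1516 against the shared DMSO arrays.

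Several well-known targets, and the receptor Pparg, had a difference between the compounds whose interval spans 0. Angptl4, an inhibitor of lipoprotein lipase, had 13.50 and 13.80 with KD3010, 13.79 and 13.59 with GW1516, and 13.19 and 13.28 with DMSO, and its difference of -0.042 had a 95% interval from -0.43 to 0.34. Creb3l3, a fasting transcription factor of liver, averaged 10.98 ± 0.026 with KD3010, 10.92 ± 0.22 with GW1516 and 8.93 ± 0.13 with DMSO (SD, n = 2 each), a difference of 0.065 (-0.32 to 0.45). The lipid droplet proteins Plin2 and Hilpda differed by 0.24 (-0.34 to 0.82) and 0.19 (-0.20 to 0.58), the hormone Fgf21 by -0.16 (-0.51 to 0.20), the acyl-CoA dehydrogenase Acadl by -0.31 (-0.70 to 0.08) and the receptor Pparg by 0.031 (-0.43 to 0.50). A p that misses the threshold does not show that the compounds act alike, and the intervals bound the differences. In the authors' normalized values Pparg averaged 441 with KD3010, 437 with GW1516 and 436 with DMSO. The probes of Ppard itself, Ppara and Cpt1a did not meet the detection rule and were not tested. Ccn2, a matrix-associated growth factor, had 13.69 and 13.71 with KD3010, 14.24 and 14.20 with GW1516, and 13.69 and 13.56 with DMSO (difference -0.52, 95% interval -0.87 to -0.17; limma, adjusted p = 0.207).

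The fatty acid and energy lists held 0 called genes. Counts of members set apart in these and the following lists stand beside 2.38% higher and 2.75% lower over all features. The mitochondrial fatty acid oxidation list had its median at -0.14, with 5 above and 13 below 0 among 18 tested and 0 set apart. Peroxisomal genes had a median of -0.043 among 22 tested, with Ehhadh and Acox3 set apart as lower. The lipid droplet list had 3 of 19 set apart as higher, Cideb (0.65), Dgat1 (0.61), which makes triglyceride, and Plin3 (0.60), at adjusted p values of 0.316, 0.268 and 0.206 (limma). Without GW1516 array A the difference of Cideb was 0.22. The list's median was 0.06 and became negative under 5 of 19 alternatives. In the list of pyruvate dehydrogenase control Pdk4 and Dld were set apart as lower, and the 53 oxidative phosphorylation genes had a median of 0.10 with 0 set apart. The cytosolic ribosomal proteins had a median of 0.11, with 25 above and 7 below 0 and 0 set apart.

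Of the 36 pathway lists, glutathione S-transferases and epidermal genes had the highest medians. Of 20 glutathione S-transferases, which join glutathione to foreign compounds, 16 were above 0 (median 0.19), and Gstm2, Gstm3 and Gstt1 were set apart as higher. Gstm3 was detected on 1 of 2 GW1516 arrays (levels 6.60 and 5.77). It passed the detection rule through KD3010 alone, where it is high. Gstm2 had 12.82 and 12.79 with KD3010, 12.27 and 11.98 with GW1516, and 12.26 and 12.24 with DMSO, and 2 further Gstm2 probes gave 0.68 and 0.74. Probes may not separate such close paralogs, so single members are uncertain. Of 10 epidermal genes 9 were above 0 (median 0.18), with Lce1d and Krt17 set apart as higher and Sprr2a1 at -0.55. The cytoskeleton list had Vim, S100a6, Ezr and Tuba4a set apart as higher and Cfl1 as lower among 28 tested.

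Cell junction, splicing and clock genes had the lowest medians of the pathway lists. Of 20 junction genes 15 were below 0 (median -0.21), and the connexins Gjb1, Gjb2 and Gja1 with Tjp3 were set apart as lower and Cldn4 as higher. Gjb2 had 12.39 and 12.42 with KD3010, 13.12 and 13.03 with GW1516, and 12.48 and 12.63 with DMSO, and its 2 further probes gave -0.64 and -0.48. Of 24 splicing regulators 20 were below 0 (median -0.27), with Ddx5, Hnrnpa1 and Hnrnph1 set apart. Ddx5 was detected on 1 of 2 KD3010 arrays (levels 5.85 and 6.99). Of the agonists only GW1516, where it is high, brought Ddx5 past the detection rule. Hnrnph1 had 9.08 and 9.51 with KD3010, 9.97 and 10.01 with GW1516, and 9.61 and 9.72 with DMSO. Of 13 clock genes 11 were below 0 (median -0.28), Per2 being set apart, with Nr1d1 at -0.42, Nr1d2 at -0.43 and Dbp at 0.45. The median of the clock list ranged from -0.35 to -0.10 over 19 alternatives, that of the splicing list from -0.35 to -0.21 and that of the junction list from -0.32 to -0.15, with no change of sign. No member of these 3 lists was called between the agonists. In the authors' normalized values Gjb2 and Per2 were called as lower with KD3010. Cldn4 was called there as higher, with means of 22275 with KD3010 and 14732 with GW1516. An unadjusted limma p below 0.05 was found for 7 of 20 junction, 7 of 24 splicing and 4 of 13 clock genes, beside 1145 of all 7884 features.

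Other genes of epithelial salt handling were listed with Guca2a. Guca2b, the uroguanylin gene, had 8.97 and 8.52 with KD3010, 9.36 and 9.41 with GW1516, and 9.83 and 9.74 with DMSO, and Scnn1a, which forms part of the epithelial sodium channel, had 8.32 and 8.19 with KD3010, 9.05 on both GW1516 arrays, and 9.45 and 9.36 with DMSO. KD3010 was thus lowest and DMSO highest in both, with differences of -0.64 and -0.80 between the agonists (limma, adjusted p = 0.191 and 0.124). In the list of 22 such genes 16 were below 0 and 3 set apart as lower. Set apart as lower with KD3010 were, in the cell death list, Mcl1 (-0.67) and Bcl2l1, in the NF-kappaB list Tnfaip2 (-0.94, with further probes at -0.40 and -0.46), Sod2 (-0.63) and Tnfaip3 (-0.62), and in the metal list Tfrc, the transferrin receptor (-0.68), Steap2 (-0.71) and Slc30a10 (-0.71). The interferon list of 35 was mixed, with Ifit2 and Gbp3 set apart as lower and Ifnk as higher (0.64).

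The remaining pathway lists had medians between -0.16, for matrix genes, and 0.055, for bile acid genes, and held 0 called genes. In the authors' normalized values Aldh1a7, Igfbp1, Fmo1, Ugt2b35 and Ebp of these lists were called as lower with KD3010. Besides Aldh1a7, Igfbp1 and Sod2, those set apart as lower included the flavin monooxygenase Fmo1 (-0.83) and the glucuronosyltransferase Ugt2b35 (-0.74) among 33 xenobiotic enzymes, and liver pyruvate kinase Pklr (-0.74, a second probe -0.38) with Pfkp, at least 1.16-fold, among 19 genes of glucose metabolism. Single members were lower in the lists of immediate early genes (Fos, -0.75), TGF-beta and YAP targets (Ankrd1, -0.71, a second probe -0.83) and cholesterol synthesis (the sterol isomerase Ebp, -0.68). The chaperone Hsp90aa1 was at least 1.37-fold and Edem1, which sends misfolded proteins to degradation, at least 1.34-fold lower with KD3010, both detected with GW1516 alone of the agonists. Set apart as higher, besides Slc51b of the bile acid list, were Hal (0.67), which breaks down histidine, the replication helicase subunit Mcm6 (at least 1.19-fold) and the cell cycle inhibitor Cdkn2c (at least 1.18-fold). The lists of matrix genes, p53 targets, acute phase genes, apolipoproteins and nuclear receptors had 0 members set apart.

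**Figure D4:**
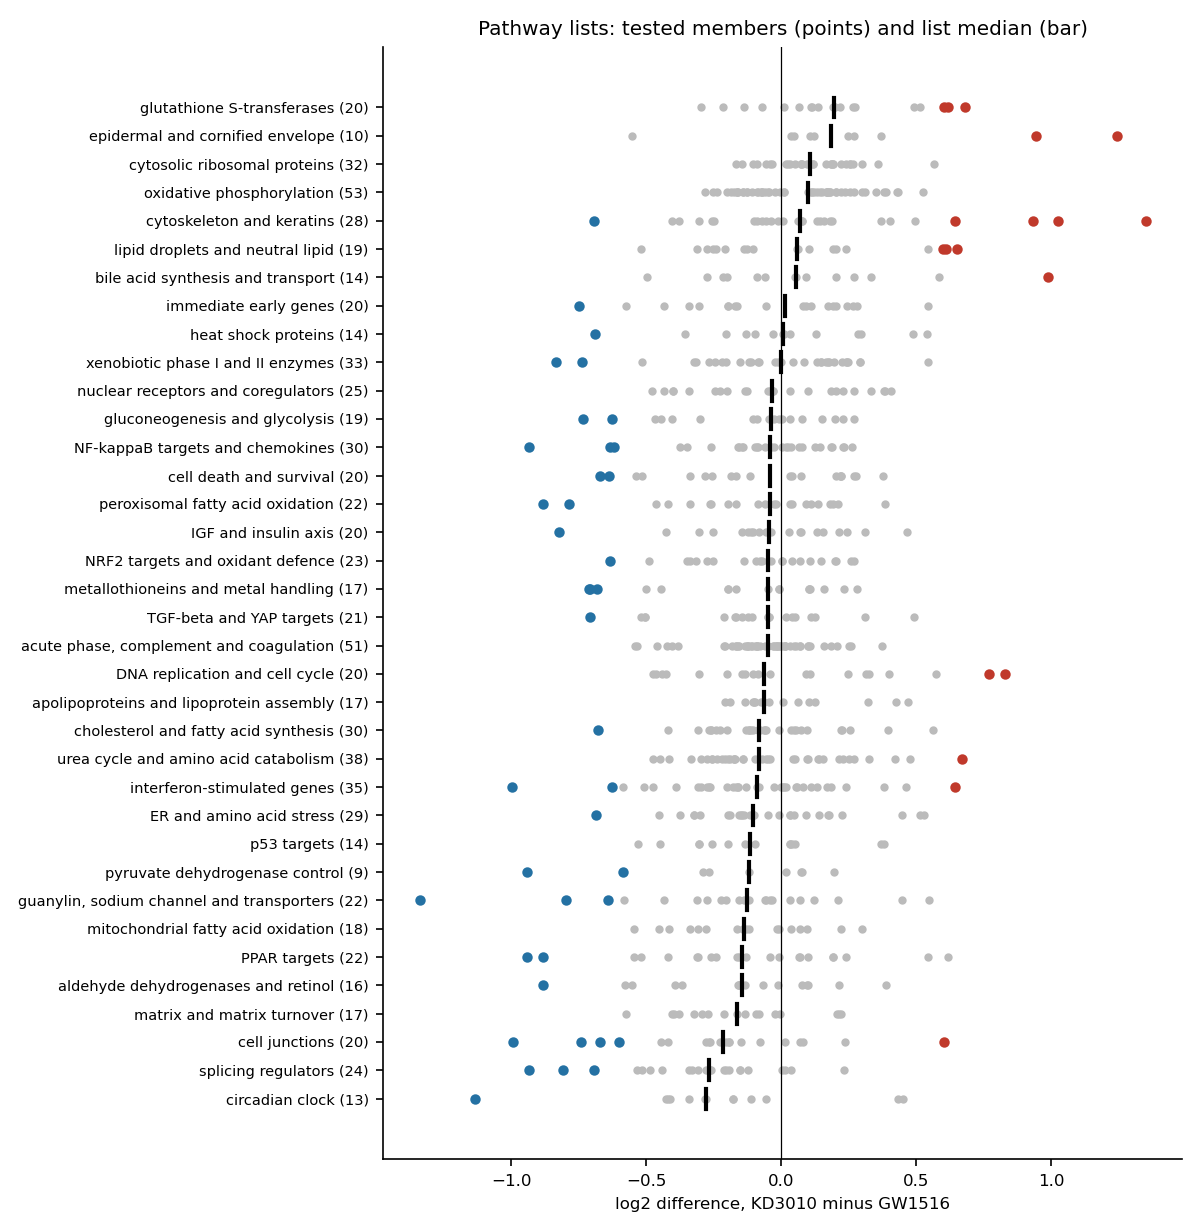
KD3010 minus GW1516 log2 differences of the tested members of the pathway lists with at least 5 tested genes, each a point, with a bar at the list's median. Red points are set apart as higher and blue ones as lower with KD3010. Splicing regulators (-0.27), circadian clock (-0.28) and cell junctions (-0.21) lie furthest below 0 and glutathione S-transferases (0.19) and epidermal genes (0.18) furthest above.

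Of 12 tested sinusoidal endothelial markers 11 were below 0 (median -0.16), and their summed signal was 3873 and 3914 on the KD3010 arrays, 4458 and 4365 on the GW1516 arrays and 4008 and 3915 on the DMSO arrays. Of 4 tested Kupffer markers 2 were above and 2 below 0 (median 0.043). For all 14 with a probe the sums were 24011 and 22848 with KD3010, 31092 and 27252 with GW1516, and 22457 and 21876 with DMSO. Detected on all arrays were Lyz1, Cd14 and Aif1. The part of endothelial and Kupffer cells in the differences above, including those of the interferon and junction genes, was not tested. Fewer cells of a type cannot be told apart from less RNA per cell in these samples.

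**Figure D5:**
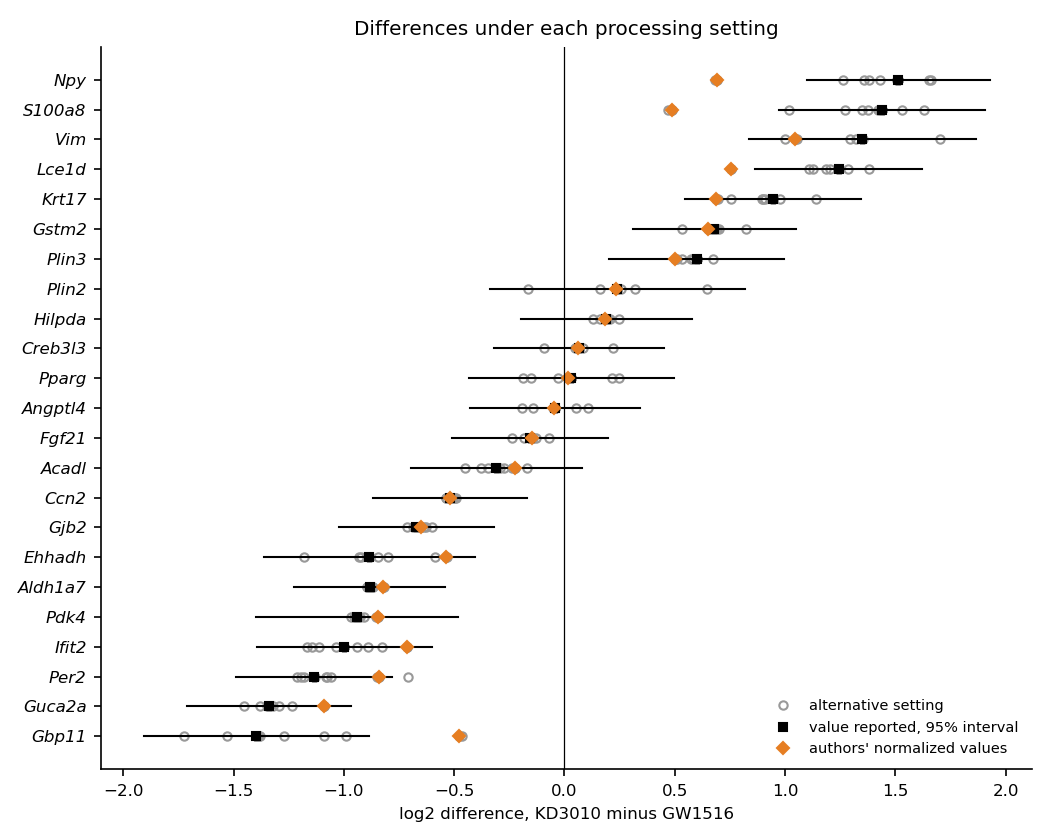
KD3010 minus GW1516 log2 difference of 23 genes on the horizontal axis, as reported with its 95% interval (black squares and lines), in the authors' normalized values (orange diamonds) and under each alternative (grey circles). Npy kept its sign throughout, from 0.68 to 1.66, and Guca2a from -1.45 to -1.09, while Plin2, Creb3l3, Pparg and Angptl4 have values on both sides of 0.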

How the data were processed

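Expression was measured on Illumina bead arrays of biotin-labelled cRNA, with 2 arrays for each of KD3010, GW1516 and DMSO, grouped by the labels. The deposited unnormalized table holds mean bead intensity and a detection p-value per probe, per the file headers, and the submitters' processing notes list GenomeStudio. Intensities normalized by the authors, in a way the sources do not give, fill another deposited table; it equalled the series matrix (linear, not centred, column medians 257.8 to 257.9), which tied arrays A and B to replicates 1 and 2. A further 31 value columns (bead counts and errors, a repeat of the detection p-values and 1 unnamed) were not used.

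Intensities were background-corrected (normexp on detection p-values, offset 16), quantile-normalized and log2-transformed with limma 3.58.1 under R 4.3.3. Gene names came from the platform annotation, updated through RefSeq: 23978 probes had 1 symbol, 0 several and 1719 none. A limma model over all 6 arrays (3 residual and 6.91 prior degrees of freedom) gave KD3010 minus GW1516, adjusted by Benjamini-Hochberg over 7884 features. An at-least fold applies where a probe was detected on neither array of the dimmer agonist, and divides the brighter mean by, per array, the dim probe's own signal or the lowest signal detected, whichever is larger. On simulated data (7884 features, 200 changed by 1.5- to 4-fold) 74.8% of 2-fold and 10.6% of 1.5-fold differences were recovered, with a mean of 9.05 false calls. Recovery depends on how many features change and by how much, which is unknown for the real arrays. There Vim, Lce1d and Per2 were more than 2-fold apart and not called.

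The members, the 36 pathway and 7 marker lists (1184 of 1324 entries had a probe) and the naming rule were chosen with earlier results of these data known. Named were the 12 largest set-apart differences in each direction, the 10 largest in each opposite set, up to 3 set-apart members per list, the 3 smallest p-values in each direction and a fixed group of 14 genes. Other genes, chosen after seeing their values, are those called in the authors' values and the list members and other opposite genes given with values. Bead arrays give no depth; the number of arrays limits precision. Alternatives varied the background correction, normalization, filter, probes per gene, variance model, arrays and block.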

Additional observations from a re-analysis of the deposited data

How the results depend on the processing

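Calls between KD3010 and GW1516 (1 higher and 1 lower with KD3010 as reported) numbered 16 and 22 without background correction, 12 and 12 with an offset of 50, 16 and 23 with the authors' or the series matrix values, 5 and 3 with a detection limit of 0.01, 3 and 2 with probes detected on all 6 arrays, and 26 and 30 with a trended and robust variance. They numbered 0 in both directions with median scaling, no filter, a filter over the 3 groups, the mean of a gene's probes, the 4 agonist arrays alone and without any 1 array (limma, 868 to 1634 features at an unadjusted p below 0.05). With the replicate block they also numbered 0 (1119 at an unadjusted p below 0.05), but same-numbered arrays share only a number and did not deviate together (correlations 0.0164 for KD3010 with GW1516, -0.0186 for KD3010 with DMSO, -0.0083 for GW1516 with DMSO).

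Features set apart (188 higher, 217 lower) numbered 26 and 25 without background correction, 100 and 105 with an offset of 50, 22 and 25 with the authors' or series matrix values, and 125 and 142 with probes detected on all 6 arrays. Without 1 array the counts ranged from 186 to 431 higher and from 213 to 473 lower. Features on opposite sides of DMSO (34 with KD3010 above, 43 with KD3010 below) numbered 8 and 5 without background correction and with the authors' or series matrix values, 21 and 28 with median scaling, and 21 with KD3010 below at an offset of 50. Without 1 array they ranged from 38 to 89 and from 42 to 118. Leaving out an array loosens these rules, since 1 array then stands for its group.

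Among named genes signs turned in 7 cases, and the medians of 11 of 36 pathway and 4 of 6 tested marker lists changed sign under 1 or more alternatives (immediate early genes under 11, xenobiotic enzymes under 7). Pparg was -0.029 with median scaling and ranged from -0.19 to 0.25 without 1 array (-0.15 when KD3010 array B was left out and -0.19 when GW1516 array A was). Angptl4 ranged from -0.19 to 0.11 (0.11 without KD3010 array A, 0.055 without GW1516 array A), Plin2 from -0.17, without KD3010 array B, to 0.65, and Creb3l3 from -0.091, without GW1516 array B, to 0.22. The cause was not tested.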

Other observations

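Core and linker histone genes were chosen as a group after their values were seen. Of 35 tested, 29 were above 0 between KD3010 and GW1516 (median log2 difference 0.30), 12 were set apart as higher and 0 as lower, beside 3877 of 7884 features above 0, 2.38% set apart as higher and 2.75% as lower. Their median level was 9.48 and 9.57 on the KD3010 arrays, 9.19 and 8.73 on the GW1516 arrays, and 9.22 and 9.05 on the DMSO arrays. H1f2, a linker histone, had 11.80 and 11.65 with KD3010, 11.08 and 11.12 with GW1516, and 10.998 and 10.996 with DMSO. H3c6 had 6.87 and 7.31 with KD3010, 6.23 and 6.04 with GW1516, and 6.17 and 5.79 with DMSO. It was detected on 1 of 2 GW1516 arrays and on no DMSO array. H3c6 thus passed the detection rule through KD3010 alone, the group where it is high. The median difference of the group lay between 0.18 and 0.39 over the alternatives and was 0.22 in the authors' normalized values. Most histone genes have near-identical copies, so single members are uncertain.

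All 7 tested guanylate-binding proteins, the interferon-induced GTPases of cell defence, were below 0 (median -0.48), beside 4007 of 7884 features. Gbp11, Gbp5 and Gbp3 were set apart as lower with KD3010 (2.75% over all features), Gbp11 having passed the detection rule through GW1516 alone. This group too was chosen after its values were seen. Gbp2b had 12.91 and 13.08 with KD3010, 13.54 and 13.40 with GW1516, and 13.44 and 13.33 with DMSO, and Gbp2 had 13.89 and 13.81 with KD3010, 14.13 and 14.09 with GW1516, and 13.96 and 14.13 with DMSO. KD3010 stood below the other 4 arrays in both. Gbp10 differed by only -0.046, with overlapping agonist arrays. Gbp7 differed by -0.31, with both KD3010 arrays between the DMSO arrays. The group's median lay between -0.55 and -0.28 over the alternatives.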
